A study of Mus musculus with 8 samples.

Results

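The 9 genes described here encode kinases, adaptors and coreceptor-like surface proteins of proximal T cell receptor signaling. They are Lck, Zap70, Txk, Lat, Lcp2, Cd2, Cd5, Cd6 and Thy1, taken by gene symbol as a fixed list from the 55487 genes in each library. The list was chosen with earlier results of these data known. RNA came from cells sorted as CD8+ out of subcutaneous B16F10 tumors, a pigmented melanoma line, in C57BL/6 mice. The tacrolimus group held 4 mice given tacrolimus (FK506) i.p. at 3 mg/kg every 5 days, and the vehicle group held 4 mice given vehicle i.p. on the same schedule. Dosing began 7 to 9 days after the tumor cells were injected, when tumors measured about 50 mm3, and harvest followed 6 days after dosing began. Each library was taken as 1 mouse, and the labels give neither the sex nor the age of the mice.

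When a T cell receptor binds its antigen, LCK phosphorylates the CD3 and zeta chains, and ZAP-70 docks there and phosphorylates the adaptors LAT and SLP-76. These adaptors assemble the complex that activates phospholipase C gamma, and the calcium it mobilises activates calcineurin. Tacrolimus binds FKBP12 and inhibits calcineurin, so the 9 genes act upstream of the step that the drug blocks.

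The sorted fraction was not pure. Melanoma markers summed to between 22034 and 27022 FPKM (fragments scaled to transcript length and to library size) in tacrolimus libraries and between 18455 and 33514 in vehicle libraries. The 9 T cell receptor and CD8 chains summed to between 49.9 and 415.7 FPKM in tacrolimus libraries and between 432.6 and 1842 FPKM in vehicle libraries, and all 9 chains had a lower mean in the tacrolimus group. Macrophage and monocyte markers also had lower means with tacrolimus, 10 of 10, and sums of 215.5 to 501.7 FPKM with tacrolimus against 391.5 to 1537 FPKM with vehicle. Vehicle replicate 1 held the highest chain and macrophage sums, and tacrolimus replicate 2 the lowest of both. In RNA from such mixed cells, fewer T cells and less RNA per T cell cannot be told apart. Natural killer markers, led by Nkg7, which CD8 T cells also express, summed to 62.98 to 344.8 FPKM with tacrolimus against 307.2 to 1576 FPKM with vehicle, and 5 of 7 were lower in mean. Nkg7 made up most of that sum, at 42.9 to 309 FPKM with tacrolimus and 285 to 1463 FPKM with vehicle, while Klrb1c, named after its values were seen, averaged 14.2 FPKM with tacrolimus and 12.3 with vehicle. Natural killer cells can express several of the 9 genes. B cell markers reached at most 3.9 FPKM with tacrolimus and 6.57 with vehicle, those of CD4 and regulatory T cells 8.56 with tacrolimus and 26.24 with vehicle, and those of dendritic cells 20.44 with tacrolimus and 31.81 with vehicle. No marker was at 0 in every library. Cd3e averaged 22.5 ± 16.7 FPKM with tacrolimus and 80.8 ± 45.6 with vehicle, and Cd8a 18.6 ± 12.2 in tacrolimus and 71.7 ± 54.5 in vehicle libraries (SD, n = 4 each). The part of each cell type in the results was not tested. Depth, estimated from the spacing of low values, was between 15800000 and 19400000 fragments.

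All 9 genes had lower mean levels in the tacrolimus group than in the vehicle group, by 2.16-fold for Thy1 to 8.95-fold for Txk in mean FPKM. Vehicle replicate 1 moved 7 of these folds by over 1.5 times. Without it Lck was lower by 2.39-fold, Zap70 by 2.45-fold, Lat by 2.02-fold, Cd2 by 2.22-fold, Cd5 by 1.71-fold, Cd6 by 1.41-fold and Thy1 by 1.33-fold, and the other two by 6.35-fold (Txk) and 2.93-fold (Lcp2). None passed an adjusted p of 0.05 in limma over the 13032 genes tested, where 0% of all genes passed. At an unadjusted p under 0.05, 7 of the 9 were lower, against 15.8% of the genes tested. Every tacrolimus library lay below every vehicle library for 5 of the 9, Zap70, Txk, Lat, Lcp2 and Cd2, against 10.2% of the genes tested. Txk counts among the 7 and the 5, although it reached the minimum for testing through the vehicle libraries alone. The median difference over the 9 genes was -1.51 on the log2(FPKM + 1) scale (range -1.87 to -1.09), and the median over all genes tested was -0.19. The groups did not overlap for only 2 of the 9 under median-of-ratios or upper-quartile scaling, and all 9 differences stayed negative there. The 10.2% is the share in the values as deposited. The share over all genes under those scalings is not given, so the 2 of 9 cannot be set against a background. With the macrophage marker level as a covariate the median of the 9 was -0.82. With the chain level it was -0.15, and with the melanoma marker level -1.89. At an unadjusted p under 0.05 in limma, 2, 1 and 9 of the 9 were lower in these fits, in that order. Txk, tested through the vehicle libraries alone, is in each of these counts and is the 1 with the chain level, so it adds no support. Of the 13032 genes tested, 1074, 2056 and 2324 were lower at that p. With the chain level Thy1 was higher (0.80, limma unadjusted p = 0.00343). None of the 9 passed an adjusted p of 0.05 with the macrophage or chain level. With the melanoma level 7 of the 9 and 3.72% of the genes tested passed it, and Txk was again among the 7.

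By mean level in tacrolimus libraries the order was Lck (16.2 FPKM), Cd2 (14.5), Thy1 (10.5), Lat (8.17), Cd6 (4.51), Cd5 (3.29), Lcp2 (3.12), Zap70 (3.02) and Txk (0.31). In vehicle libraries it was Lck (68.1 FPKM), Cd2 (57.6), Lat (31.2), Thy1 (22.7), Cd6 (17.3), Lcp2 (13.1), Cd5 (12.4), Zap70 (11.96) and Txk (2.75). Neighbours in either order differed by less than the larger of their SDs, except Txk and Zap70 in both groups and Lat and Cd6 in tacrolimus libraries.

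**Figure D1:**
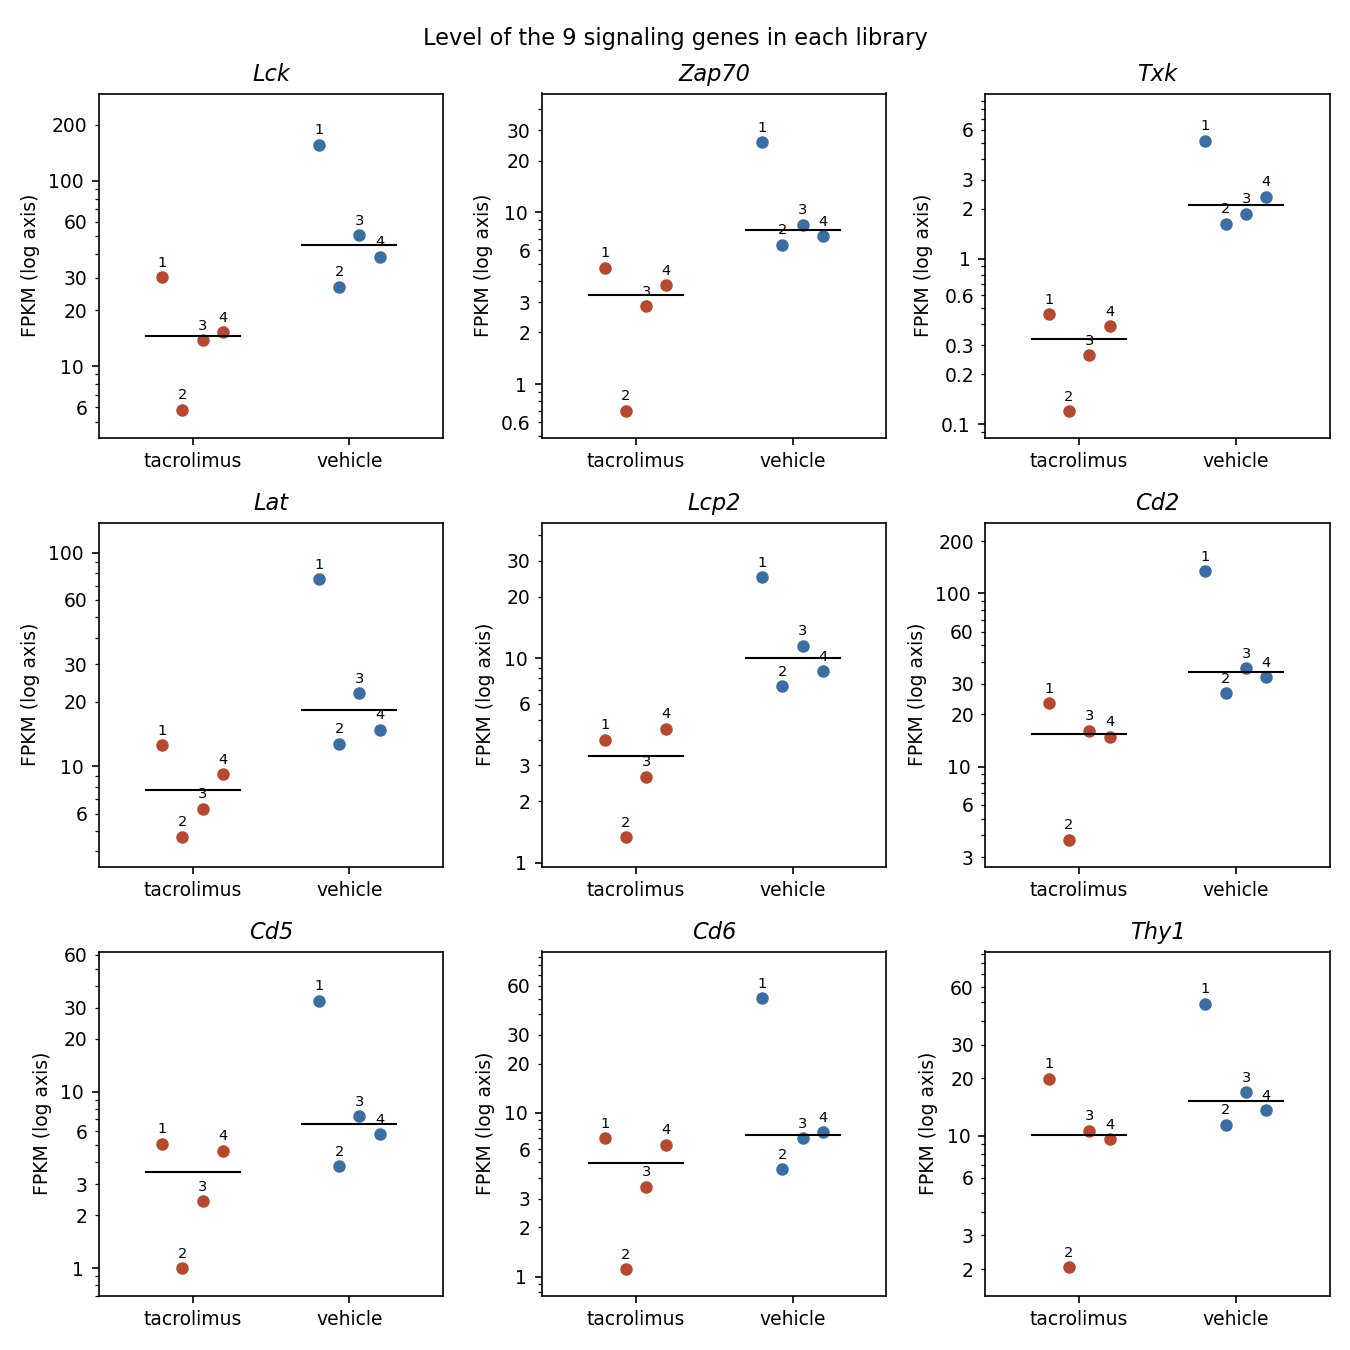
FPKM (log axis) of each of the 9 genes in the 4 tacrolimus libraries (left in each panel) and the 4 vehicle libraries (right), with the replicate number beside each point and a line at the group median. Vehicle replicate 1 was the highest library for all 9 genes and tacrolimus replicate 2 the lowest. For Thy1, tacrolimus replicate 1 at 19.8 FPKM lay above 3 vehicle libraries.

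Lck (ENSMUSG00000000409; GRCm38 chromosome 4, 129548344 to 129573641, minus strand) encodes the Src family kinase bound to the CD8 and CD4 coreceptors that starts the cascade. Its level was 30.1, 5.81, 13.8 and 15.3 FPKM in tacrolimus replicates 1 to 4, against 156, 26.8, 50.6 and 38.8 FPKM in vehicle replicates 1 to 4. The groups overlapped only through tacrolimus replicate 1, which exceeded vehicle replicate 2. The difference was -1.87 (SE 0.55, limma unadjusted p = 0.00708, adjusted p = 0.195). Lck had the highest level of the 9 genes in 7 of 8 libraries. In tacrolimus replicate 3 Cd2 was higher, and the mean levels of Lck and Cd2 differed by less than their spread between mice in both groups.

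Zap70 (ENSMUSG00000026117; chromosome 1, 36761798 to 36782818, plus strand) encodes the kinase recruited to the phosphorylated receptor chains. It stood at 4.76, 0.70, 2.83 and 3.77 FPKM with tacrolimus, against 25.7, 6.46, 8.47 and 7.24 FPKM with vehicle. The groups did not overlap, and the difference was -1.61 (SE 0.47, limma unadjusted p = 0.00632, adjusted p = 0.193). The pseudogene Gm18828 overlaps it on the other strand and reached 0.98 FPKM, above the 0.70 FPKM of Zap70 in tacrolimus replicate 2; whether counting used strand is not given, so reads of the 2 cannot be told apart.

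Txk (ENSMUSG00000054892; chromosome 5, 72695978 to 72752777, minus strand) encodes a Tec family kinase of T cells, also known as Rlk. It had the lowest level of the 9 genes in all 8 libraries and the largest fold between group means. It stood at 0.46, 0.12, 0.26 and 0.39 FPKM with tacrolimus, against 5.15, 1.63, 1.87 and 2.36 FPKM with vehicle. Every tacrolimus library was below 1 FPKM and every vehicle library above it, so Txk reached the minimum for testing (1 FPKM in 4 libraries) through the vehicle group alone. The difference was -1.44 (SE 0.29, limma unadjusted p = 5.51e-04, adjusted p = 0.179). Because of that entry the p of Txk is a description only and no support for a difference. With the longest annotated transcript of 5303 bases, that is at most about 10 to 40 fragments in a tacrolimus library and 139 to 459 in a vehicle library, so counting error is largest for this gene.

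**Figure D2:**
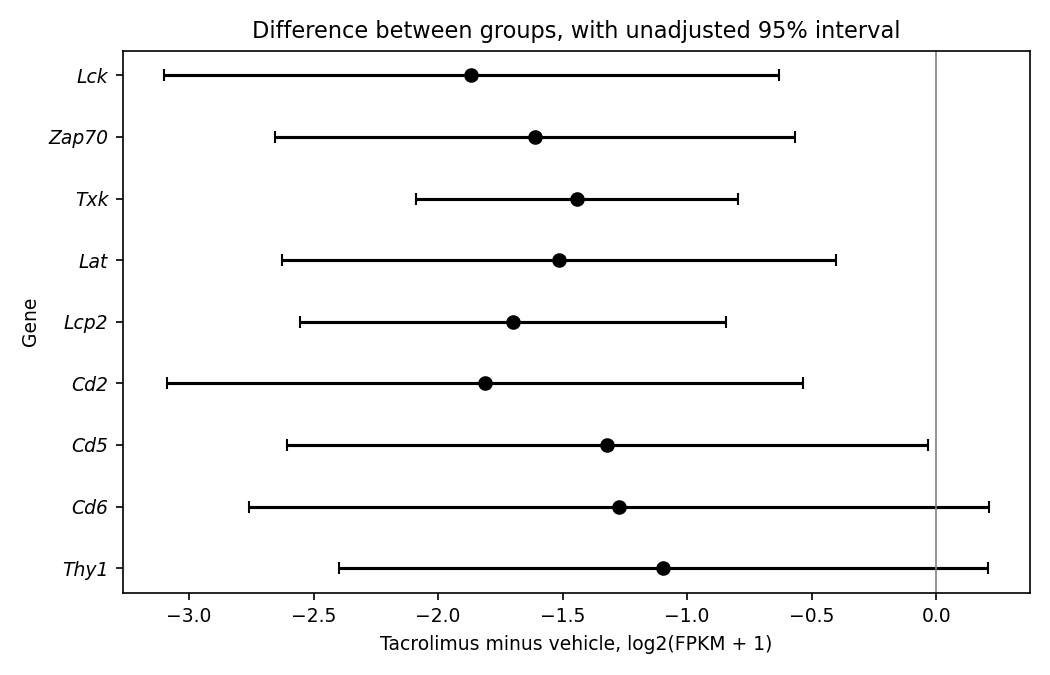
Difference of log2(FPKM + 1), as tacrolimus minus vehicle, for each of the 9 genes, with the unadjusted 95% interval from limma (n = 4 mice per group). The intervals of Cd6 and Thy1 reach across 0, and those of the other 7 genes lie below it.

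The promoter stretches of the kinases Txk and Zap70 and of the adaptor gene Lcp2 are shown because these 3 genes had the smallest unadjusted p of the 9. They are RefSeq sequences of build GRCm38.p6, from 250 bases before to 50 after the outermost listed transcription start, written 5′ to 3′ on the gene's strand. Capitals mark GGAAA, the core bound by NFAT factors, and GGAAG, a core bound by ETS factors, on either strand; in Zap70 a match to one shares a base with a match to the other. The stretches are chr5:72752728-72753027 (minus strand) for Txk, chr1:36761548-36761847 (plus strand) for Zap70 and chr11:34046678-34046977 (plus strand) for Lcp2.
Txk: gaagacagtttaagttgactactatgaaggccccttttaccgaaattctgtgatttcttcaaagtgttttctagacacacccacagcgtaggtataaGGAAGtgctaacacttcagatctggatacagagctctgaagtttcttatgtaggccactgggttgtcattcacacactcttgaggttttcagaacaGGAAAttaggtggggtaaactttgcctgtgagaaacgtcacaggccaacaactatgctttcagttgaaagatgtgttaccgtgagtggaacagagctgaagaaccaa
Zap70: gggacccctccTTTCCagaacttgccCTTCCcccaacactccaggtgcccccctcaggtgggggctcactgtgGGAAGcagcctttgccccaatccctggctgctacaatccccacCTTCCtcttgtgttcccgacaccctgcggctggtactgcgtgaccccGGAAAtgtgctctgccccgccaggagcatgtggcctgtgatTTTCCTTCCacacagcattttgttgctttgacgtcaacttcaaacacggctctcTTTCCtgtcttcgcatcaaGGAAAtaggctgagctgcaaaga
Lcp2: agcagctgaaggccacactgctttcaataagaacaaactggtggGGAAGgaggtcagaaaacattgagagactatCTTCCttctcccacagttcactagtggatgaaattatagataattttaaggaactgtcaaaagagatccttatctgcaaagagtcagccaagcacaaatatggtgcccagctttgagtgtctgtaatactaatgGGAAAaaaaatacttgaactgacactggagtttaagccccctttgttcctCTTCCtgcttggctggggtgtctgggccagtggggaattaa

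The Txk stretch held 1 match to GGAAA and 1 to GGAAG, the Zap70 stretch 5 and 4, and the Lcp2 stretch 1 and 3. Other stretches are listed for Zap70 and Txk. Those of Zap70 held 0 and 4 (from base 36764265) and 0 and 0 (from base 36778734). The other stretch of Txk held 2 and 1. Of the 10 promoter stretches listed for 6 of the 9 genes, 7 held GGAAA and 9 held GGAAG. Among all 32851 mouse promoter stretches of this length, 61.3% held GGAAA and 71.4% held GGAAG on either strand. The RUNX core TGTGGT, on either strand, was in 4 of the 10 stretches and in 16.8% of all. A match says only that these letters are present.

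The adaptors stood between Lck and Txk in level. Lat (ENSMUSG00000030742; chromosome 7, 126363824 to 126369570, minus strand) encodes the membrane scaffold that ZAP-70 phosphorylates. It stood at 12.5, 4.67, 6.32 and 9.17 FPKM with tacrolimus, against 75.2, 12.7, 21.9 and 14.8 FPKM with vehicle. The groups were separated by the gap between 12.52 FPKM in tacrolimus replicate 1 and 12.72 in vehicle replicate 2. The difference was -1.51 (SE 0.50, limma unadjusted p = 0.0125, adjusted p = 0.205).

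Lcp2 (ENSMUSG00000002699; chromosome 11, 34046920 to 34092295, plus strand) encodes SLP-76, the adaptor that joins LAT to VAV1 and phospholipase C gamma. It stood at 3.99, 1.33, 2.64 and 4.52 FPKM with tacrolimus, against 24.9, 7.31, 11.5 and 8.63 FPKM with vehicle, and the groups did not overlap. The difference was -1.70 (SE 0.38, limma unadjusted p = 0.00126, adjusted p = 0.179), with the second smallest unadjusted p of the 9 genes.

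Among the surface genes, Cd2 (ENSMUSG00000027863; chromosome 3, 101275899 to 101287939, minus strand) encodes the adhesion receptor that binds CD48 in mice. It stood at 23.2, 3.79, 16.1 and 14.9 FPKM with tacrolimus, against 134, 26.5, 37.1 and 32.9 FPKM with vehicle. The groups did not overlap, and the difference was -1.81 (SE 0.57, limma unadjusted p = 0.0101, adjusted p = 0.201).

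Cd5 (ENSMUSG00000024669) and Cd6 (ENSMUSG00000024670) encode related scavenger receptor cysteine-rich proteins that dampen receptor signaling, and CD6 binds ALCAM. They lie on the minus strand of chromosome 19, at 10717116 to 10739002 and 10789341 to 10830058, with 50338 bases between them. Cd5 stood at 5.09, 1, 2.40 and 4.65 FPKM with tacrolimus, against 32.8, 3.79, 7.31 and 5.77 FPKM with vehicle. Its difference was -1.32 (SE 0.58, limma unadjusted p = 0.0453, adjusted p = 0.276). Cd6 stood at 7.00, 1.11, 3.54 and 6.40 FPKM with tacrolimus, against 50.2, 4.53, 6.99 and 7.61 FPKM with vehicle. The groups overlapped for both genes, and the Cd6 difference of -1.28 (SE 0.67, limma unadjusted p = 0.0849, adjusted p = 0.338) did not pass. Vehicle replicate 1 weighed most on this pair. Its level was 5.84 times the mean of the other vehicle libraries for Cd5 and 7.87 times for Cd6, against 2.64 to 4.56 times for the other 7 genes. Without that library the vehicle mean was 5.62 FPKM for Cd5 and 6.38 FPKM for Cd6, beside tacrolimus means of 3.29 and 4.51 FPKM.

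Thy1 (ENSMUSG00000032011; chromosome 9, 44043384 to 44048579, plus strand) encodes the GPI-anchored surface protein CD90, which mouse T cells carry in abundance and which fibroblasts and neurons also express. It stood at 19.8, 2.04, 10.6 and 9.55 FPKM with tacrolimus, against 49.2, 11.4, 16.9 and 13.6 FPKM with vehicle. The groups overlapped, and Thy1 had the smallest difference of the 9 genes, -1.09 (SE 0.59, limma unadjusted p = 0.0908, adjusted p = 0.349). Without vehicle replicate 1 its vehicle mean was 13.9 FPKM, beside a tacrolimus mean of 10.5 FPKM, and without tacrolimus replicate 1 the tacrolimus mean was 7.39 FPKM.

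Across the 8 libraries the 9 genes followed each other. Over their 36 pairs, Pearson's r of log2(FPKM + 1) ran from 0.756 for Txk and Thy1 to 0.993 for Zap70 and Cd2, with a median of 0.944. After the group means were removed the median was 0.950, with the highest value for Cd5 and Cd6 at 0.991. These are descriptions over 8 libraries that each hold a mixture of cells, with tacrolimus replicate 2 at the low end and vehicle replicate 1 at the high end. The genes outside the list whose levels were most like the mean of the 9 were H2-Q6 (r = 0.997 over 8 libraries), Lime1 (0.996), Ncf4 (0.994), Gimap1 (0.994), Gimap7 (0.994) and Grap (0.994). H2-Q6 belongs to a family of near-identical class I genes among which reads may have been split.

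Because the 9 receptor and CD8 chains (Cd3d, Cd3e, Cd3g, Cd247, Trac, Trbc1, Trbc2, Cd8a and Cd8b1) were lower in the same libraries, each gene was also set against the chains of its own library, a comparison whose exact tests were added after the data were seen. The geometric mean of the chains was 37.9, 4.49, 20.9 and 20.8 FPKM in tacrolimus replicates 1 to 4, against 167, 40.5, 54.7 and 53.0 FPKM in vehicle replicates 1 to 4. A ratio within a library does not depend on how libraries are scaled. On this measure 7 of the 9 genes overlapped between the groups, while Txk was lower and Thy1 higher in every tacrolimus library than in every vehicle library. Of the genes tested, 0.0537% were lower and 15% higher in this way. The 1 of 9 higher is near that background share, and of the 7 genes in all that were lower, 5, Txk among them, reached the minimum for testing through the vehicle libraries alone.

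**Figure D3:**
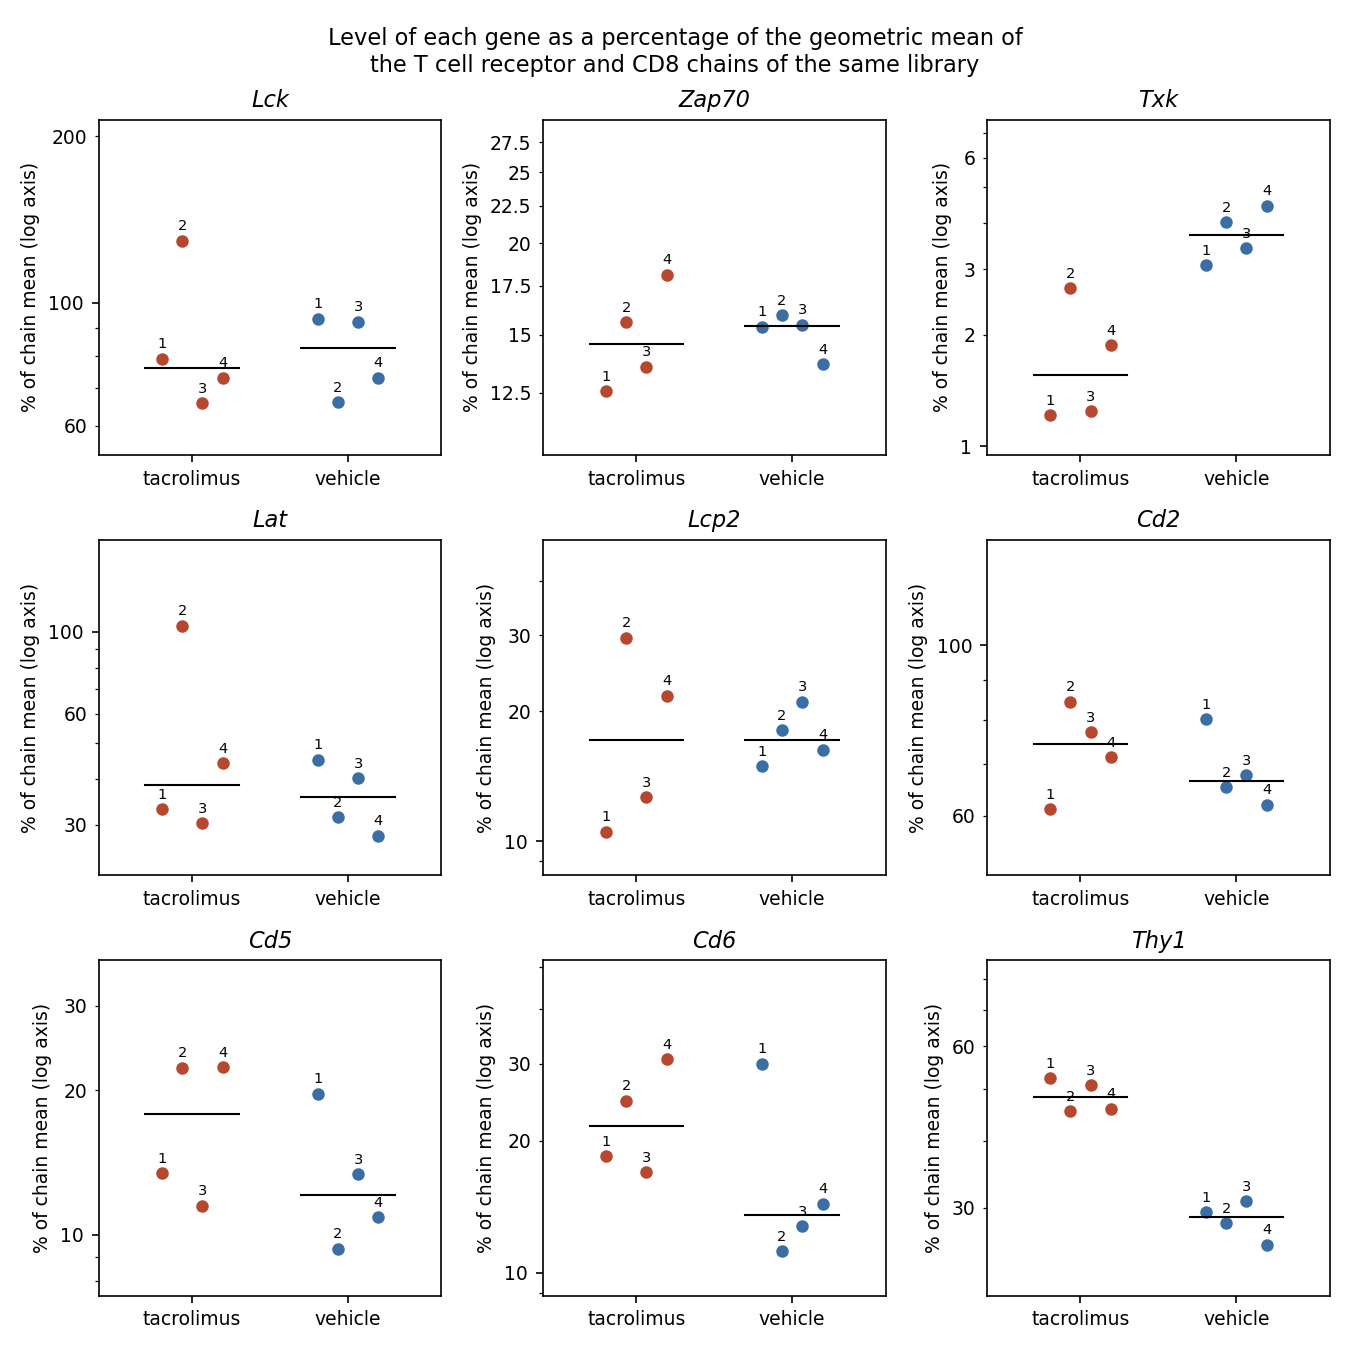
Level of each gene as a percentage of the geometric mean of the 9 receptor and CD8 chains of the same library (log axis), for tacrolimus libraries (left) and vehicle libraries (right), with replicate numbers and group medians. Txk was at 1.21% to 2.67% with tacrolimus and 3.08% to 4.46% with vehicle, Thy1 at 45.4% to 52.3% with tacrolimus and 25.6% to 30.8% with vehicle, and the other 7 genes overlapped.

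Txk stood at 1.21%, 2.67%, 1.25% and 1.87% of the chain mean in tacrolimus replicates 1 to 4, against 3.08%, 4.03%, 3.42% and 4.46% in vehicle replicates 1 to 4. Even the highest tacrolimus value, in the library with the fewest T cell transcripts, lay below the lowest vehicle value. The difference of the log2 ratios was -1.16, given without a test since Txk entered the genes tested only through the vehicle group. It lay between -1.39 and -1.01 when any 1 library was left out. That range and the separation of the groups come from the same selected values and add no support.

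Thy1 stood at 52.3%, 45.4%, 50.7% and 45.9% of the chain mean with tacrolimus, against 29.4%, 28.1%, 30.8% and 25.6% with vehicle. The values within a group lay close together, 48.6% ± 3.46 with tacrolimus and 28.5% ± 2.23 with vehicle (SD, n = 4 each), although the chain mean itself ranged from 4.49 to 37.9 FPKM among tacrolimus libraries and from 40.5 to 167 FPKM among vehicle libraries. The difference of the log2 ratios was 0.77 (exact two-sided permutation p = 0.0286, unadjusted, the smallest that 4 against 4 libraries can give), and it lay between 0.72 and 0.81 when any 1 library was left out. This p is 1 of 9 such tests and was not adjusted for them. For the genes whose ratios overlapped, the exact permutation p ran from 0.229 for Cd6 to 0.943 for Lcp2. Most genes were higher relative to the chains with tacrolimus: on the log2(FPKM + 1) scale 13001 of 13032 were, by a median of 1.70, above the 0.80 of Thy1. Fibroblast and endothelial markers, whose cells can also carry Thy1, summed to 36.8 to 60.7 FPKM with tacrolimus and 45.6 to 76.7 FPKM with vehicle, and 5 of 9 were lower in mean with tacrolimus. Their part in the Thy1 ratio was not tested.

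The result for Txk and Thy1 depended on which chain was used. Against the 4 CD3 and zeta chains alone, or Cd8a and Cd8b1 alone, both genes kept groups that did not overlap. Against single chains, the Txk groups did not overlap for 6 of 9 chains, the exceptions being Cd247, Trbc1 and Cd8a. The Thy1 groups did not overlap for 7 of 9, the exceptions being Cd3e and Trbc1. No other gene of the 9 was separated against any single chain. Shares over all genes tested are not given for these choices of chain. Against the mean of all 9 chains they were 0.0537% lower and 15% higher. The Txk counts again come from a gene tested through the vehicle libraries alone.

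**Figure D4:**
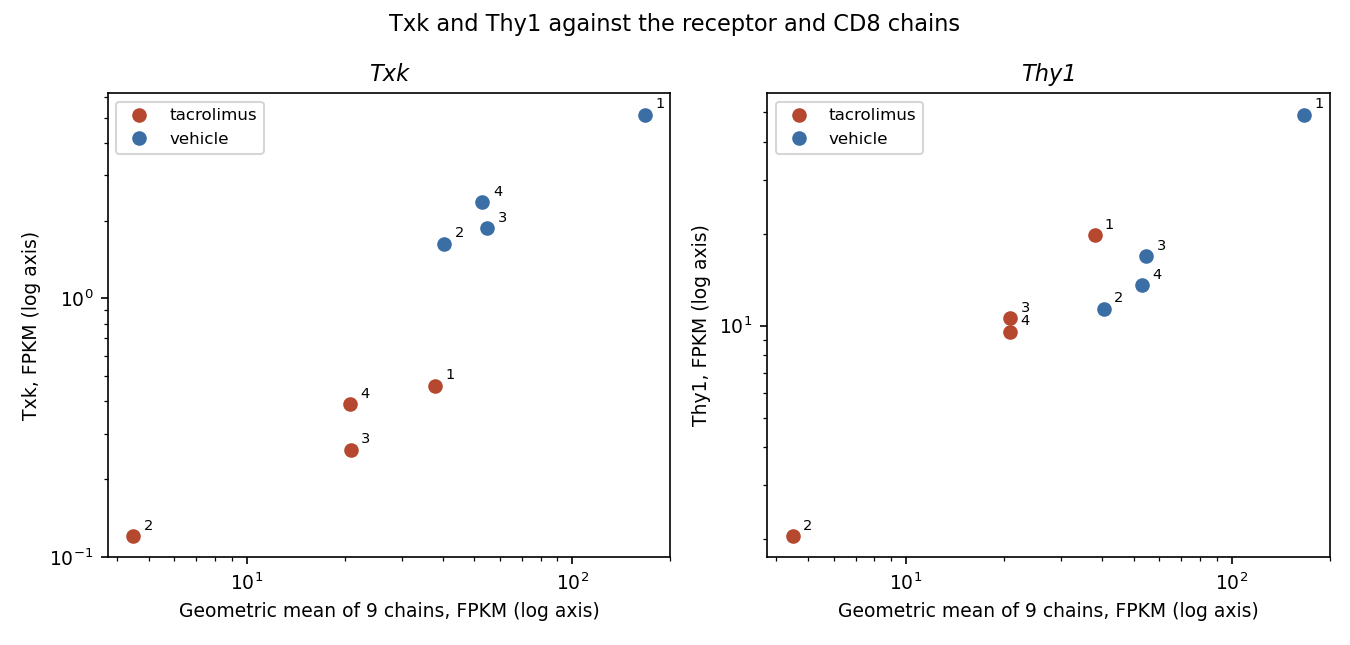
FPKM of Txk (left panel) and Thy1 (right panel) against the geometric mean of the 9 receptor and CD8 chains, both on log axes, with 1 numbered point per library. At a like chain level, tacrolimus replicate 1 (37.9 FPKM) and vehicle replicate 2 (40.5 FPKM) had 0.46 and 1.63 FPKM of Txk, and 19.8 and 11.4 FPKM of Thy1. Txk reached the minimum for testing through the vehicle libraries alone.

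The pair of libraries closest in chain level across the groups can be set side by side. Tacrolimus replicate 1 had a chain mean of 37.9 FPKM and vehicle replicate 2 one of 40.5 FPKM. Txk was at 0.46 FPKM in the tacrolimus library and 1.63 FPKM in the vehicle library, and Thy1 at 19.8 FPKM in the tacrolimus and 11.4 FPKM in the vehicle library. Lck was at 30.1 FPKM in the tacrolimus library and 26.8 FPKM in the vehicle library, Lat at 12.5 (tacrolimus) and 12.7 FPKM (vehicle), and Cd2 at 23.2 (tacrolimus) and 26.5 FPKM (vehicle). Lcp2 was at 3.99 (tacrolimus) and 7.31 FPKM (vehicle), Zap70 at 4.76 (tacrolimus) and 6.46 FPKM (vehicle), Cd6 at 7.00 (tacrolimus) and 4.53 FPKM (vehicle), and Cd5 at 5.09 (tacrolimus) and 3.79 FPKM (vehicle). Lcp2, Zap70, Cd6 and Cd5 thus also differed in this pair, and no cut was set for a difference. The pair is 2 libraries, without a test, and Txk reached the minimum for testing through the vehicle libraries alone.

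For the other 7 genes the ratios to the chains overlapped between the groups. Zap70 was at 15.0% ± 2.45 of the chain mean with tacrolimus and 15.1% ± 0.999 with vehicle, Cd2 at 73.5% ± 9.81 with tacrolimus and 68.8% ± 7.93 with vehicle, and Lcp2 at 18.6% ± 8.79 with tacrolimus and 17.6% ± 2.65 with vehicle (SD, n = 4 each). Lck was at 86.9% ± 28.8 with tacrolimus and 81.4% ± 13.8 with vehicle, and Lat at 52.8% ± 34.6 with tacrolimus and 36.1% ± 7.81 with vehicle, both raised in the tacrolimus group by replicate 2, where Lck reached 129% and Lat 104%. Cd5 was at 17.4% ± 5.74 with tacrolimus and 13.3% ± 4.54 with vehicle. Cd6 was at 17.0% to 30.7% with tacrolimus, against 11.2% to 14.4% in vehicle replicates 2 to 4 and 30.03% in vehicle replicate 1, so its groups overlapped through that library alone.

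Levels relative to the chains were also compared with limma over all genes, after the mean log2(FPKM + 1) of the chains was subtracted from each library. No gene of the 9 passed an adjusted p of 0.05, and 0.698% of the genes tested did. The differences ran from 0.03 for Lck (SE 0.86, adjusted p = 0.971) to 0.80 for Thy1 (SE 0.85, adjusted p = 0.359), with a median of 0.38 over the 9 genes against 1.70 over all genes tested. The SE of Thy1 in this fit was far above its spread between mice on the same scale (SD 0.0777 with tacrolimus and 0.104 with vehicle), since limma draws each gene's spread toward that of all genes. The count of genes passing in this fit was 91, and it ran from 14 to 11054 when 1 library was left out. For Txk the pseudocount of 1 turned the sign. The relative difference was 0.46 with it (SE 0.83, adjusted p = 0.590), -0.75 with a pseudocount of 0.1 and -1.16 with none.

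A wider list of 59 genes of the same pathway, chosen from textbook knowledge but with earlier results of these data known, gave 56 tested genes. Its counts are therefore descriptions and no independent support. Of these, 55 had a lower mean in the tacrolimus group, 45 had an unadjusted p under 0.05, all of them lower, and none passed an adjusted p of 0.05 in limma, where the smallest adjusted p of any gene was 0.139. The groups did not overlap for 23 of the 56. The shares over all genes tested were 15.8% lower at that unadjusted p and 10.2% without overlap. The median difference was -1.09 on the log2(FPKM + 1) scale, beside -1.51 for the 9 genes and -0.19 for all genes tested.

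**Figure D5:**
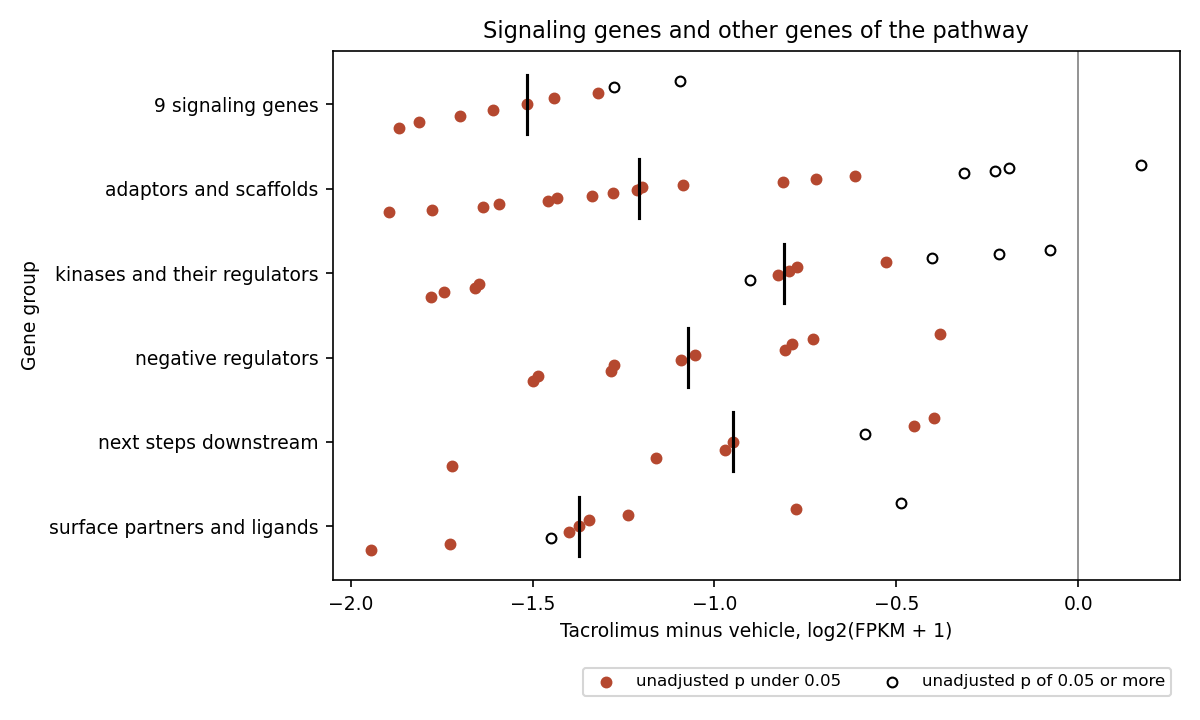
Difference of log2(FPKM + 1), as tacrolimus minus vehicle, for the 9 signaling genes and the 56 other tested genes of the pathway by role, 1 point per gene, filled where the unadjusted p was under 0.05, with a bar at the median of each group. The medians run from -1.51 for the 9 genes to -0.81 for kinases and their regulators.

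Among kinases and their regulators, 8 of 12 genes were lower at an unadjusted p under 0.05, against 15.8% of the genes tested. Ptpn6, the phosphatase SHP-1 that opposes proximal kinases, averaged 28.02 ± 2.15 FPKM in tacrolimus libraries and 48.5 ± 2.13 in vehicle libraries (SD, n = 4 each; difference -0.77, adjusted p = 0.145 in limma). Fyn, the other main Src family kinase in T lymphocytes, was at 13.2 ± 2.69 FPKM in tacrolimus and 24.8 ± 9.26 in vehicle libraries (difference -0.83). Ptprc, the phosphatase CD45 that activates LCK, was at 15.6 ± 8.52 FPKM in tacrolimus and 56.5 ± 45.8 in vehicle libraries (difference -1.66). Melanoma and macrophage cells can express some of these genes, and the share from each cell type was not tested.

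Among adaptors and scaffolds, 14 of 18 tested genes were lower at an unadjusted p under 0.05, against 15.8% of all genes tested. Skap1, an adaptor of integrin activation, averaged 5.53 ± 3.50 FPKM in tacrolimus libraries and 23.8 ± 17.9 in vehicle libraries (difference -1.89). Vav1, a guanine nucleotide exchange factor that binds SLP-76, was at 2.57 ± 1.25 FPKM in tacrolimus and 10.8 ± 7.79 in vehicle libraries (difference -1.59). Cd2bp2, which binds the tail of CD2 and also serves in splicing, was at 11.1 ± 2.68 FPKM in tacrolimus and 19.9 ± 2.73 in vehicle libraries (difference -0.81). These 3 were named for the smallest unadjusted p of this role, so their groups, which did not overlap, add no support. Of the 18 tested genes of the role, 6 had groups that did not overlap, against 10.2% of all genes tested.

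All 10 negative regulators tested were lower at an unadjusted p under 0.05, against 15.8% of the genes tested. The largest of these was 0.0476 in limma, for Dok1, and none passed an adjusted p of 0.05. Dgkz, a kinase that removes diacylglycerol, averaged 13.1 ± 3.30 FPKM in tacrolimus libraries and 23.3 ± 6.26 in vehicle libraries (difference -0.79). Dok2 was at 6.06 ± 2.45 FPKM in tacrolimus and 22.2 ± 19.4 in vehicle libraries (difference -1.49), and Sla, the adaptor SLAP, at 3.95 ± 1.93 FPKM in tacrolimus and 14.7 ± 12.8 in vehicle libraries (difference -1.50).

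Of 7 tested genes of the next steps downstream, 6 were lower at an unadjusted p under 0.05, against 15.8% of all genes tested. Prkcq (protein kinase C theta) averaged 3.25 ± 0.32 FPKM in tacrolimus libraries and 7.42 ± 2.31 FPKM in vehicle libraries (difference -0.95). Coro1a, an actin regulator of leukocytes, was at 56.1 ± 29.6 FPKM in tacrolimus and 196 ± 146 in vehicle libraries (difference -1.72), and Was, the Wiskott-Aldrich protein, at 1.62 ± 0.51 FPKM in tacrolimus and 4.36 ± 2.28 in vehicle libraries (difference -0.97). Of 9 tested surface partners and ligands, 7 were lower at that p, against the same 15.8%. Cd27, a costimulatory receptor, was at 4.67 ± 2.54 FPKM in tacrolimus and 20.2 ± 17.5 in vehicle libraries (difference -1.73), Slamf6 at 1.42 ± 0.96 FPKM in tacrolimus and 4.82 ± 2.81 in vehicle libraries (difference -1.24), and Alcam, the ligand of CD6, at 2.04 ± 0.74 FPKM in tacrolimus and 4.15 ± 0.91 in vehicle libraries (difference -0.78).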

How the data were processed

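The labels give 4 tacrolimus and 4 vehicle libraries, and each library was taken as 1 mouse. The deposited files hold 1 value per Ensembl gene, and neither header nor label says in which unit. From their spacing and sums they were taken as FPKM, which the authors had scaled for transcript length and library size before they were deposited. Per the submitters' processing notes, HISAT2 2.1.0, RSEM 1.3.1, DESeq2 1.24.0 and build GRCm38.p6 are named with no role or order, and strand use is not given in the sources used here. Low values of genes with 1 annotated transcript gave the depth: 84.3% to 86.4% of them lay within 0.15 steps of a whole fragment, against 30% for evenly spread values. The files hold no counts, so no count test was run.

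Symbols and coordinates come from GENCODE M21 (55227 of 55487 identifiers matched). Values were analysed as log2(FPKM + 1) in genes with 1 FPKM or more in at least 4 libraries, with limma 3.58.1 (eBayes with trend) in R 4.3.3 and Benjamini-Hochberg adjustment. This scale understates the change of low genes, and differences are tacrolimus minus vehicle. Ratios to the receptor and CD8 chains were tested with exact permutation tests over the 70 assignments of libraries, unadjusted, 1 for each of the 9 genes; these tests and the ratio without a pseudocount were added after the data were seen. The members and lists were chosen with earlier results of these data known. All 9 members were named, with up to 3 genes of each pathway role by the smallest unadjusted p and the 6 genes most correlated with the mean of the 9. The limma step was tested on simulated data. At most 1.69% of values were identical in a pair of libraries. Plots used Python 3.11.15 and matplotlib 3.10.9. Alternatives were other pseudocounts, filters, scalings, covariates, weights, a replicate block and each library left out.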

Additional observations from a re-analysis of the deposited data

Results flagged for a closer look

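Vehicle replicate 1 stood apart from the other vehicle libraries in 6 of the 9 genes by Dixon's test at the 95% level, out of 18 gene and group combinations examined. Chance alone flags about 1 in 20 such groups, and the 9 genes move together, so the 6 are not independent. Its level was 25.7 FPKM for Zap70 (next highest vehicle library 8.47), 75.2 for Lat (next 21.9), 134 for Cd2 (next 37.1), 32.8 for Cd5 (next 7.31), 50.2 for Cd6 (next 7.61) and 49.2 for Thy1 (next 16.9). The same library had the highest sum of receptor and CD8 chains, 1842 FPKM, and of macrophage markers, 1537 FPKM. Their part in these levels was not tested.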

How the results depend on the processing

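All 9 differences stayed negative under every pseudocount, filter, scaling and weighting tried and without any 1 library, except that Txk was not tested at a mean of 5 FPKM or more. Under median-of-ratios scaling the median of all genes was 0.01 in place of -0.19, with 735 genes lower and 741 higher (778 and 723 under upper-quartile scaling) at an unadjusted p under 0.05 against 2056 and 208 in the values as deposited, and the median of the 9 genes was then -1.34. The labels do not say whether the numbers 1 to 4 pair the libraries. Correlations of same-numbered deviations were 0.215, 0.277, -0.0197 and -0.0217, and 2 of 4 tacrolimus libraries correlated best with their own number. The mean level of the 9 genes was highest in replicate 1 and lowest in replicate 2 of both groups. These values do not settle a pairing, so the replicate block is given here only. With it 121 genes passed, Lck (adjusted p = 0.0344 in limma) and Lcp2 (0.0478) among them. With the melanoma level as a covariate 485 genes passed, 7 of the 9 among them, while Cd6 and Thy1 did not pass. The lowest adjusted p of the 7 in limma, 0.0181, was that of Txk. That gene was tested through the vehicle libraries alone, so its p adds no support. The others of the 7 ran from 0.01855 for Lck to 0.0467 for Cd5. With the chain level as a covariate no gene passed, the median of the 9 genes was -0.15, and 4 genes turned: Cd2 to 0.0304, Cd5 to 0.34, Cd6 to 0.69 and Thy1 to 0.80 (limma unadjusted p = 0.00343, adjusted p = 0.257). The cause was not tested. With 1 library left out, 0 to 1 genes passed, the 1 gene without vehicle replicate 1, where the median of the 9 was -1.18.

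Relative to the chains 91 genes passed, 157 with a pseudocount of 0.1 and 12375 with the replicate block, and between 14 and 11054 without 1 library (11054 without tacrolimus replicate 1, 93 without tacrolimus replicate 2 and 14 to 48 without any other). Signs turned for Lck (-0.0631) and Cd2 (-0.00775) with the CD3 chains alone and for Txk (-0.75) with a pseudocount of 0.1. With no pseudocount they turned for Zap70 (-0.0279), Txk (-1.16) and Lcp2 (-0.0275). Without 1 library Lck ran from -0.14 to 0.13, Txk from -0.0274 to 0.77 and Lcp2 from -0.11 to 0.45. Depth limits Txk most, with an estimated 10 fragments in tacrolimus replicate 2.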
